A study of Mus musculus with 12 samples.

Results

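The 55 genes described here are every row of the deposited expression table whose symbol begins with Kif and a digit or with Cenp and a letter, out of 14244 rows. They comprise 34 rows of the Kif series and 21 rows of the Cenp series. RNA was measured in gut epithelial cells of 5 wild-type (WT) and 7 Chd8L+/- mice, all C57BL/6 male littermates aged 8 weeks. The labels give the genotype of the second group as CHD8+/- and its titles call it KO. By the study's account these mice are heterozygous for a knockout of the large isoform of Chd8, in which internal exons are deleted. It calls this haploinsufficiency systemic. Its methods say that the mice came from Chd8L+/- males crossed with WT females. Each library came from 1 mouse.

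Kinesins are motor proteins that walk along microtubules or take microtubule ends apart. Some of them work on the spindle: they slide its microtubules, move chromosomes and complete the cleavage of the cell. Others carry organelles, vesicles and RNA through cells whether or not they divide. The CENP proteins sit at the centromere, where an inner layer built on nucleosomes with CENP-A recruits the outer kinetochore that grips the spindle. In the gut epithelium divisions take place in the crypts, while the enterocytes on the villi no longer divide.

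The members were sorted by known role into 11 mitotic kinesins, 12 transport kinesins, 10 other kinesins, 16 inner kinetochore CENPs, 2 outer kinetochore CENPs and 3 other CENPs. Kif1bp, which matches the symbol rule, encodes a protein that binds kinesins and is no motor, so it was kept apart. Values are normalized counts, that is, reads divided by a size factor of the library, and the libraries held 15691662 to 20761315 reads. A mean of at least 10 normalized counts was required for testing, which 51 of the 55 members met. The 4 members left out by this filter were Kif5c, Kif19a, Kif26a and Kif26b, with 0.86 to 19.1 normalized counts in the 12 libraries.

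Chd8 itself was at 1002, 1050.2, 934, 955 and 823 normalized counts in WT replicates 1 to 5. It ranged from 1084 to 1482 with a median of 1280.5 in the libraries labelled Chd8L+/-, so the groups did not overlap and Chd8 was the higher in the group labelled heterozygous (log2 fold change 0.44 ± 0.10, adjusted p = 0.121 by limma). By DESeq2 with all libraries the adjusted p was 0.00378, where 5.69% of all genes passed 0.05. By limma without WT replicate 2 it was 0.00676, where 27.6% of all genes passed. The count covers the whole gene, including exons outside the deletion, and so does not check the deletion. The study assayed the deleted exons separately by real-time PCR, which was not analysed here. A library is called Chd8L+/- or WT below as it was labelled, and every direction given is between the groups so labelled.

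WT replicate 2 stood apart from the other WT libraries. On the first principal component of all genes tested, which held 39.7% of the variance, it lay at 41.0, among the Chd8L+/- libraries at 0.26 to 42.7, while the other WT libraries lay at -67.5 to -26.2. Its Chd8 count was the highest of the WT group but below every Chd8L+/- library. Because it touches nearly every result on the mitotic genes, values are given with and without it. It was singled out from these same values, and leaving it out draws the groups apart by that choice. The p-values and group separations without it therefore describe how the results depend on it, and are no independent test of the genotype. In bulk RNA such as this, fewer cells of a type and less RNA per cell cannot be told apart. The cells were shaken off intestinal sections after incubation with a chelator. Of the epithelial markers, 8 of 8 were measured, with Epcam at 42403 and Cdh1 at 14508 in WT. Markers of other cells were measured too: 13 of 14 T and B lymphocyte markers, which summed to 2804 to 8324 over the 12 libraries, and 9 of 11 myeloid markers, which summed to 2404 to 4890.

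In the comparison of all 12 libraries, 38 of the 51 tested members had a higher mean in Chd8L+/-, as had 51.4% of all genes, and 13 a lower one, with a median log2 fold change of 0.58 beside 0.01 over all 12808 genes tested. None passed an adjusted p of 0.05 (limma, Benjamini-Hochberg over all genes), where 0.0234% of all genes passed, or 3 genes, all of them lower. At an unadjusted p of 0.05 or less there were 23 members, all higher in Chd8L+/-, beside 12.5% of all genes that were higher and 11.8% that were lower at that level. By edgeR, where 0.039% of genes passed, no member did either, and by DESeq2 Kif20b was higher and Kif1a lower (adjusted p = 0.0316 and 0.0313), where 5.69% of genes passed. In no member were the groups apart with all libraries, beside 0.242% of genes so separated and higher. Without WT replicate 2, 26 members passed beside 27.6% of all genes. Of these members 25 were higher, where 14% of all genes passed as higher and 13.6% as lower. The 23 were split unevenly by role, with 11 of 11 mitotic kinesins, 2 of 2 outer kinetochore CENPs, 8 of 16 inner kinetochore CENPs, 1 of 11 transport kinesins and 1 of 7 other kinesins tested.

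**Figure D1:**
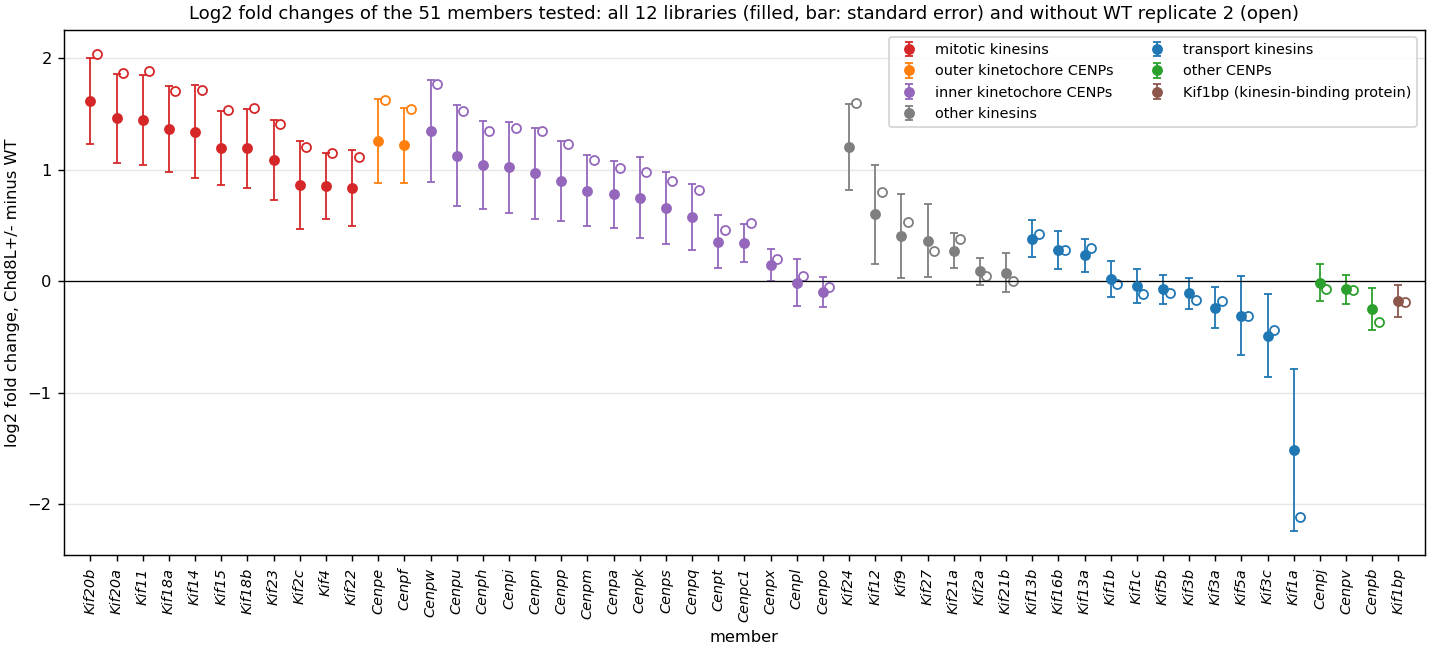
Log2 fold change (Chd8L+/- minus WT, log2(normalized count + 1) scale) of each of the 51 members tested, coloured by role; filled points with bars are the fit of all 12 libraries with its standard error and open points are the fit without WT replicate 2. The 11 mitotic kinesins lie between 0.834 and 1.61, whereas 10 of the 11 transport kinesins lie within 0.5 of 0.

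The mitotic kinesins had higher means in Chd8L+/- libraries in 11 of 11 cases, although none passed the adjusted threshold. Their median log2 fold change was 1.19, and 11 of 11 reached an unadjusted p of 0.05, while adjusted p ran from 0.121 to 0.197. Kif20b, a kinesin of the midzone and of cytokinesis, was at 147, 352, 50.4, 56.5 and 104 normalized counts in WT replicates 1 to 5 and from 243 to 464 with a median of 339 in Chd8L+/-. WT replicate 2 fell among the Chd8L+/- values and the other WT libraries lay below all of them. Its log2 fold change, given with the standard error, was 1.61 ± 0.38 (adjusted p = 0.121) and became 2.03 ± 0.27 without WT replicate 2 (adjusted p = 0.00255).

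Kif11, the motor that crosslinks and slides antiparallel microtubules to part the spindle poles, had 339, 823, 112, 120.0 and 231 normalized counts in the WT libraries. Its Chd8L+/- values ran from 534 to 942 with a median of 577. The pattern was that of Kif20b, with WT replicates 3 and 4 lowest and WT replicate 2 above 5 of the 7 Chd8L+/- libraries (log2 fold change 1.44 ± 0.40, adjusted p = 0.121). Its log2 fold change without WT replicate 2 was 1.88 ± 0.28 (adjusted p = 0.00265). Kif15, which can stand in for Kif11 on the spindle and falls outside the rule for named genes, was singled out after its values were seen for that role, with 182, 372, 79.7, 82.3 and 145 in WT and 254 to 491 with a median of 342 in Chd8L+/-.

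The kinesins of the central spindle and midbody behaved likewise. Kif23, the motor subunit of centralspindlin, was at 358, 601, 145, 106 and 285 in WT and at 364 to 760.0 with a median of 595 in Chd8L+/- (log2 fold change 1.09 ± 0.36, adjusted p = 0.125). Kif20a, which brings the Aurora B complex to the midzone, was at 122, 252, 34.3, 46.6 and 74.0 in WT and at 171 to 328 with a median of 196 in Chd8L+/- (log2 fold change 1.46 ± 0.40, adjusted p = 0.121). Kif14, which recruits citron kinase to the midbody, was at 80.0, 147, 19.2, 24.8 and 60.2 in WT and at 96.9 to 189 with a median of 139 in Chd8L+/- (log2 fold change 1.34 ± 0.42, adjusted p = 0.122). In each of these genes the lowest Chd8L+/- library exceeded every WT library other than WT replicate 2.

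The chromokinesins Kif4 and Kif22, which bind chromosome arms, had smaller differences. Kif4 was at 178, 373, 114, 93.2 and 174 in WT and 189.7 to 415 with a median of 293 in Chd8L+/-, a log2 fold change of 0.85 ± 0.30 (adjusted p = 0.129). Kif22 was at 242, 392, 102, 102 and 192 in WT and 192 to 524 with a median of 329 in Chd8L+/- (log2 fold change 0.83 ± 0.34, adjusted p = 0.164), and its groups overlapped even without WT replicate 2, since WT replicate 1 exceeded the lowest Chd8L+/- libraries. Kif2c, the microtubule depolymerase of the centromere, also overlapped without that library, at 121, 247, 58.5, 41.7 and 110.3 in WT and 104 to 277 with a median of 195 in Chd8L+/- (log2 fold change 0.86 ± 0.39, adjusted p = 0.197). Kif18a, which limits chromosome movement at the plate, was at 25.8, 82.2, 16.1, 15.9 and 56.4 in WT and 61.3 to 122 with a median of 79.6 in Chd8L+/- (log2 fold change 1.36 ± 0.39, adjusted p = 0.121).

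Without WT replicate 2, 11 of 11 mitotic kinesins passed the adjusted threshold, with adjusted p from 0.00255 to 0.0216 and a median log2 fold change of 1.55. In 9 of the 11 the groups then did not overlap, beside 6.69% of all genes that were so separated and higher. WT replicate 2 was the highest WT library in 11 of 11 mitotic kinesins, whereas it was the highest for 33.9% of all genes tested. The lowest WT library was replicate 3 in 6 of them and replicate 4 in 5. Kif20a, Kif18a and Kif4 overlap the protein-coding genes Cdc23, Mettl15 and Pdzd11 on the opposite strand, and whether reads were counted by strand was not stated in the sources used here.

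**Figure D2:**
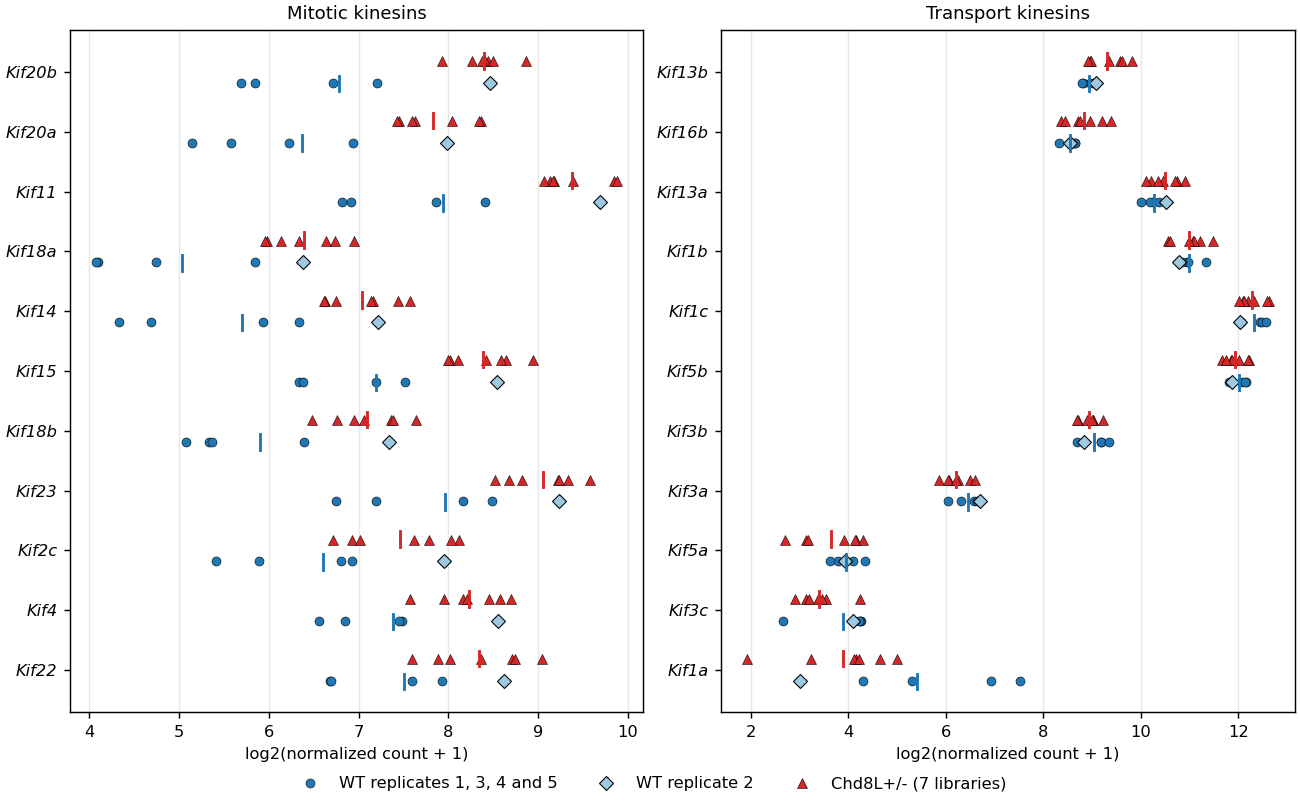
Log2(normalized count + 1) of each tested mitotic (left) and transport (right) kinesin, 1 row a gene; circles are WT replicates 1, 3, 4 and 5, the diamond is WT replicate 2, triangles are the 7 Chd8L+/- libraries and short lines are group means. In the left panel the diamond sits among the triangles and the circles lie to their left, except that WT and Chd8L+/- overlap in Kif22 and Kif2c also among the circles, while in the right panel the groups overlap in each gene and WT replicates 3 and 4 lie farthest right for Kif1a.

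The genes of the mitotic program are known to share promoter elements: the cell cycle genes homology region, or CHR, with the core TTTGAA or TTTAAA, and the CCAAT box bound by NF-Y. The promoters of the members were read from RefSeq (GRCm38.p6, 250 bases before to 50 after the annotated start), which gave one for 48 of the 55 members. The table had none for Kif20a, Kif13b, Kif19a, Kif5b, Kif5a, Kif21b and Kif1bp. These motifs were searched on both strands. TTTGAA was found in 9 of 10 mitotic kinesins, all but Kif18a, beside 17.9% of all 32851 promoters in the table and 1 of 11 promoters of the 9 transport kinesins that had one. In 7 of the 10 it began within 25 bases of the start, a window chosen after the positions were seen, beside 2.65% of all promoters. TTTAAA was in 2 of the 10 mitotic kinesin promoters and in 13.2% of all promoters. A CCAAT box was in 6 of the 10, in 4 of the 11 transport kinesin promoters and in 37.4% of all promoters.

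The sequences below show 80 bases before and 20 after the start for mitotic genes with a TTTGAA match inside this window, and for a pair of transport kinesins without one. Capitals mark TTTGAA and the CCAAT box, each also where it lies on the other strand and its reverse complement is printed.
Kif11, chr19:37376302-37376401, plus strand: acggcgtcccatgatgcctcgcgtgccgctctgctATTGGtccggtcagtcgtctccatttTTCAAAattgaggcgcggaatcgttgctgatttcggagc
Kif18b, chr11:102925105-102925204, minus strand: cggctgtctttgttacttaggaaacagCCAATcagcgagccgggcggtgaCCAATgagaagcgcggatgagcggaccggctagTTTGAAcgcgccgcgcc
Kif20b, chr19:34922278-34922377, plus strand: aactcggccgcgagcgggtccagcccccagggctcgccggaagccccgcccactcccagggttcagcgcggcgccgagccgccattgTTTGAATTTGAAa
Kif23, chr9:61946780-61946879, minus strand: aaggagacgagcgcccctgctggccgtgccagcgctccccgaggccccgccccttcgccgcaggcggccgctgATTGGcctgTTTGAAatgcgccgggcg
Cenpf, chr1:189688067-189688166, minus strand: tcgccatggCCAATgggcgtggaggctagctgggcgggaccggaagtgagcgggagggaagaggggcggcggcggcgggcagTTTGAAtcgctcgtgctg
Kif3a, chr11:53567289-53567388, plus strand: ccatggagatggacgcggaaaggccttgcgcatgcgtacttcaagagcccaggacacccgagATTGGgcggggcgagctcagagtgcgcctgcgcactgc
Kif1c, chr11:70700468-70700567, plus strand: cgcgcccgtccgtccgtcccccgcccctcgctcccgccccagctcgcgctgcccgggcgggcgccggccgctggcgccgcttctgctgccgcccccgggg
Kif18b, a mitotic kinesin outside the rule for named genes, was chosen for its promoter after its values were seen. In Kif18b, Kif23 and Cenpf the TTTGAA match begins at the base numbered 3 or 4 after the start, and in Kif20b a pair of matches lie side by side at 8 and 14. Kif11 has its match 19 bases before the start and a CCAAT box on the other strand 45 bases before it. Kif3a has a CCAAT box only, and Kif1c has neither motif. A match is a run of letters and not a site shown to be bound, and other annotated starts of these genes were not searched.

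**Figure D3:**
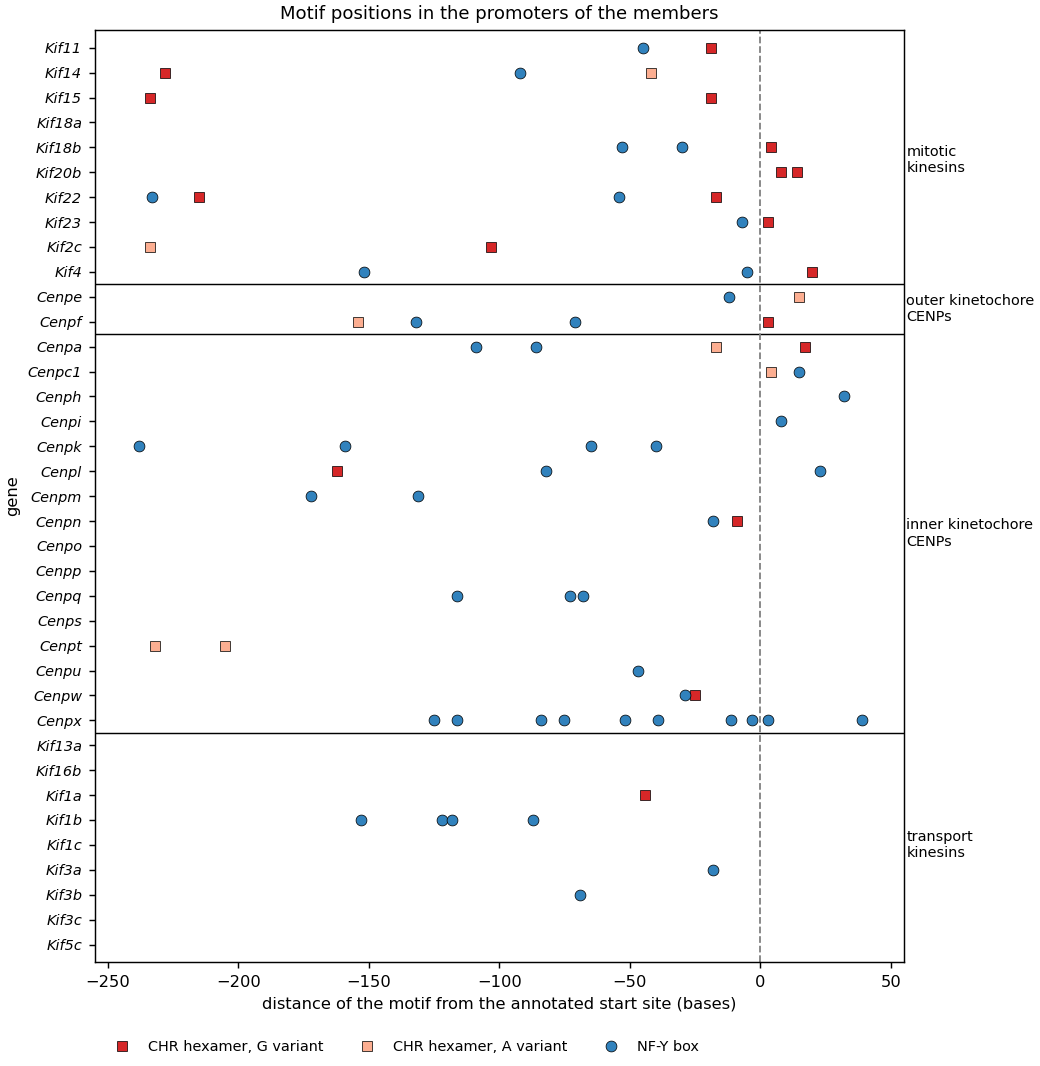
Position of each CHR hexamer (red squares, the G variant; pale squares, the A variant) and each NF-Y box (blue circles) relative to the RefSeq start (dashed line, in bases) in mitotic kinesins, outer and inner kinetochore CENPs and transport kinesins. G variants gather near the start in 7 of 10 mitotic kinesins, and 1 transport kinesin, Kif1a, has a match.

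The means of the transport kinesins were split between both directions. Of 11 tested, 4 were higher in Chd8L+/- and 7 lower, with a median log2 fold change of -0.07, and none passed the adjusted threshold. With quantile normalization the transport median was 0.12, with 6 higher and 5 lower. Kif5b, the ubiquitous heavy chain of conventional kinesin, was at 4333, 3764, 4578, 4508 and 3612 normalized counts in WT and 3256 to 4809 with a median of 3733 in Chd8L+/-. The groups overlapped throughout, and the log2 fold change was -0.07 ± 0.13 (adjusted p = 0.748). Kif1c, which carries Golgi and integrin vesicles along microtubules, was at 5603, 4188, 5742, 6053 and 4287 in WT and 4123 to 6306 with a median of 4685 in Chd8L+/- (log2 fold change -0.04 ± 0.15, adjusted p = 0.89). Kif1b, a carrier of mitochondria and synaptic vesicle precursors, was at 2595, 1771, 1991, 1999 and 1843 in WT and 1498 to 2867 with a median of 2167 in Chd8L+/- (log2 fold change 0.02 ± 0.16, adjusted p = 0.955). The signs of these 3 small differences turned under some of the alternative settings.

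Kif3a, a subunit of the heterotrimeric kinesin of cilia, was at 64.9, 104, 94.8, 98.2 and 79.0 in WT and 56.9 to 96.3 with a median of 73.2 in Chd8L+/- (log2 fold change -0.24 ± 0.18, adjusted p = 0.432). The member with the smallest p among the transport kinesins was Kif13b, which moves along microtubules with membrane cargo and was the transport kinesin furthest against the median of its list. It was at 516, 542, 500.1, 448 and 443 in WT and 481 to 903 with a median of 655 in Chd8L+/- (log2 fold change 0.38 ± 0.17, adjusted p = 0.187). Its lowest Chd8L+/- libraries lay inside the WT range, while 4 of 7 lay above it.

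Kif1a was the transport kinesin with the largest difference and was chosen after its values were seen. This motor of neuronal dense-core and synaptic vesicles was at 18.7, 7.10, 120.0, 182 and 38.9 normalized counts in WT and at 2.80 to 31.1 with a median of 16.8 in Chd8L+/-, on chromosome 1 (chr1:93015464-93101951, mm10). WT replicates 3 and 4 were the highest of all libraries and WT replicate 2 lay near the low end of the Chd8L+/- range. Its log2 fold change was -1.51 ± 0.73 (adjusted p = 0.217), and -2.11 ± 0.65 without WT replicate 2 (adjusted p = 0.0299), where it was the only transport kinesin past the threshold by limma. With 1 surrogate variable in the limma fit of all libraries its sign turned, to 0.38 ± 0.51 (adjusted p = 0.948).

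The mean log2 level of the 11 tested mitotic kinesins minus that of the 11 tested transport kinesins was formed in each library. In WT replicates 1 to 5 it was -1.06, 0.05, -2.77, -2.78 and -1.38. In Chd8L+/- it ranged from -0.81 to 0.43, so WT replicate 2 fell inside the Chd8L+/- range and the other WT libraries fell below it. The group means were -1.59 ± 1.21 (SD, n = 5) and -0.22 ± 0.51 (SD, n = 7), and without WT replicate 2 the WT mean was -2.0 ± 0.91 (SD, n = 4). The medians of the log2 fold changes of both lists differed by 1.27, which was 1.03 to 1.66 with each library left out in turn. With 1 surrogate variable in the fit, the mitotic median was 0.29, the transport median 0.18 and the difference 0.11. These are descriptions of chosen members and carry no test. Library names open with a letter that the labels do not explain. Within letters A, B and C the mitotic mean was higher in Chd8L+/- by 0.64 (2 WT libraries, WT replicate 2 among them, and 2 Chd8L+/- libraries), 1.62 (2 and 1) and 2.01 (1 and 3), and the transport mean was lower by 0.04, 0.29 and 0.39. With the letter as a block, 5 mitotic kinesins and both outer CENPs passed the adjusted threshold as higher, where 1.37% of all genes did.

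**Figure D4:**
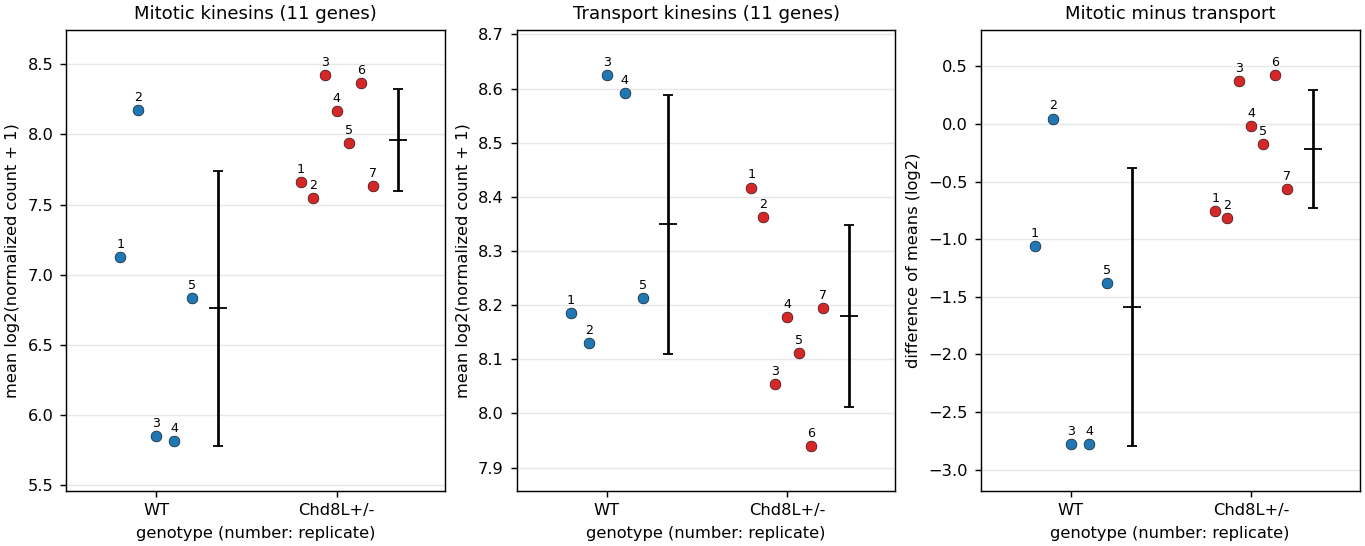
Mean log2(normalized count + 1) of the 11 tested mitotic kinesins, of the 11 tested transport kinesins, and the difference of both, in each library (numbers are replicates); black bars are the group mean and SD. WT replicate 2 lies at 0.05 in the right panel, inside the Chd8L+/- range, and WT replicates 3 and 4 lie lowest at -2.77 and -2.78.

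Levels between genes were compared as normalized counts per kilobase of the longest annotated coding transcript. The most abundant kinesins by this measure were Kif1c and Kif5b, which stood at 774 ± 130.4 and 689.5 ± 73.3 (mean ± SD, n = 5) in WT and did not differ beyond their spread. Kif1b followed at 199 ± 31.8. The mitotic kinesins were between 7.41 for Kif14 and 97.3 for Kif22 in WT and between 15.1 and 161 in Chd8L+/-. The neuronal heavy chain Kif5a, also outside the rule for named genes and chosen after its values were seen, stood at 2.34 ± 0.48 in WT. Among the CENPs, Cenpb had 727 ± 213, Cenpa 202 ± 96.6 and Cenpf 23.4 ± 15.9 per kilobase in WT.

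The outer kinetochore CENPs resembled the mitotic kinesins. Cenpe encodes a kinesin that brings chromosomes to the spindle equator, and it was at 335, 565, 108, 104 and 152 normalized counts in WT and 336 to 669 with a median of 527 in Chd8L+/- (log2 fold change 1.25 ± 0.37, adjusted p = 0.121). Cenpf, a large coiled-coil protein that loads onto kinetochores before division, was at 323, 536, 106, 117 and 221 in WT and 363 to 630.2 with a median of 531 in Chd8L+/- (log2 fold change 1.22 ± 0.34, adjusted p = 0.121). In both genes the Chd8L+/- libraries lay above every WT library except WT replicate 2, and both passed without that library (adjusted p = 0.00395 and 0.00363).

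The 16 inner kinetochore CENPs were less uniform. Their median log2 fold change was 0.76, and 14 were higher in Chd8L+/- and 2 lower. An unadjusted p of 0.05 or less was reached by 8, all higher, where 12.5% of all genes were higher at that level. Cenpa, the histone H3 variant that marks the centromere, was at 272, 519.5, 165, 189 and 331 in WT and 292 to 790.2 with a median of 502 in Chd8L+/- (log2 fold change 0.78 ± 0.30, adjusted p = 0.149). WT replicate 5 lay above the lowest Chd8L+/- libraries, so these groups overlapped also without WT replicate 2. Cenpa passed by limma in that fit (log2 fold change 1.01 ± 0.27, adjusted p = 0.017). Cenpc1, the scaffold that joins CENP-A nucleosomes to the outer kinetochore, differed less, at 156, 269.9, 137, 138 and 148 in WT and 179.5 to 246 with a median of 204 in Chd8L+/- (log2 fold change 0.34 ± 0.17, adjusted p = 0.236), and WT replicate 2 was the highest of all 12 libraries. Without that library the groups of Cenpc1 did not overlap and it passed by limma (log2 fold change 0.52 ± 0.13, adjusted p = 0.0111).

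Members of one subcomplex were spread widely. Of the histone-fold complex of CENP-T, W, S and X, Cenpw had the smallest p of the list, with 26.7, 91.3, 12.1, 16.9 and 31.3 in WT and 29.3 to 138 with a median of 83.2 in Chd8L+/- (log2 fold change 1.34 ± 0.46, adjusted p = 0.127). Its partners Cenps, Cenpt and Cenpx, named for this comparison after their values were seen, had log2 fold changes of 0.66 ± 0.32, 0.35 ± 0.24 and 0.14 ± 0.14. CENP-S and CENP-X also act in DNA repair with the FANCM protein. In the complex of CENP-O, P, Q and U, Cenpo alone was lower, at 115, 121, 101, 111 and 92.8 in WT and 88.7 to 111 with a median of 101 in Chd8L+/- (log2 fold change -0.10 ± 0.13, adjusted p = 0.673), beside 1.12 ± 0.45 for Cenpu, 0.90 ± 0.36 for Cenpp and 0.58 ± 0.29 for Cenpq, which were also named after their values were seen. Differences between members of a complex were not tested, and Cenpo, Cenpp, Cenpq, Cenpu, Cenpk and Cenpt overlap coding genes on the opposite strand.

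Without WT replicate 2, 11 of the 16 inner kinetochore CENPs passed as higher, where 14% of all genes did, with a median log2 fold change of 0.99. In 7 the groups did not overlap, beside 6.69% of all genes that were so separated and higher. WT replicate 2 was the highest WT library in 15 of the 16. Within letters A, B and C the list mean was higher in Chd8L+/- by 0.36, 0.88 and 1.17 on the log2 scale. TTTGAA was in 4 of their 19 promoters, TTTAAA in 3 and CCAAT in 15, beside 17.9%, 13.2% and 37.4% of all promoters.

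The other CENPs do not belong to the kinetochore scaffold, and 3 of 3 had slightly lower means in Chd8L+/-, with a median log2 fold change of -0.07. Cenpb, which binds a short motif in centromeric satellite DNA, was at 3205, 2450.5, 3929, 5155 and 3014 in WT and 2121 to 3714 with a median of 3046 in Chd8L+/- (log2 fold change -0.25 ± 0.19, adjusted p = 0.427). Its order of libraries ran against that of the mitotic genes, with WT replicates 3 and 4 highest and WT replicate 2 lowest of the WT group. Cenpj, a protein of centriole assembly, was at 121, 95.4, 126, 121 and 92.8 in WT and 85.9 to 142 with a median of 113 in Chd8L+/- (log2 fold change -0.02 ± 0.17, adjusted p = 0.965). Neither differed beyond the spread between libraries, and their promoters held none of the motifs searched.

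**Figure D5:**
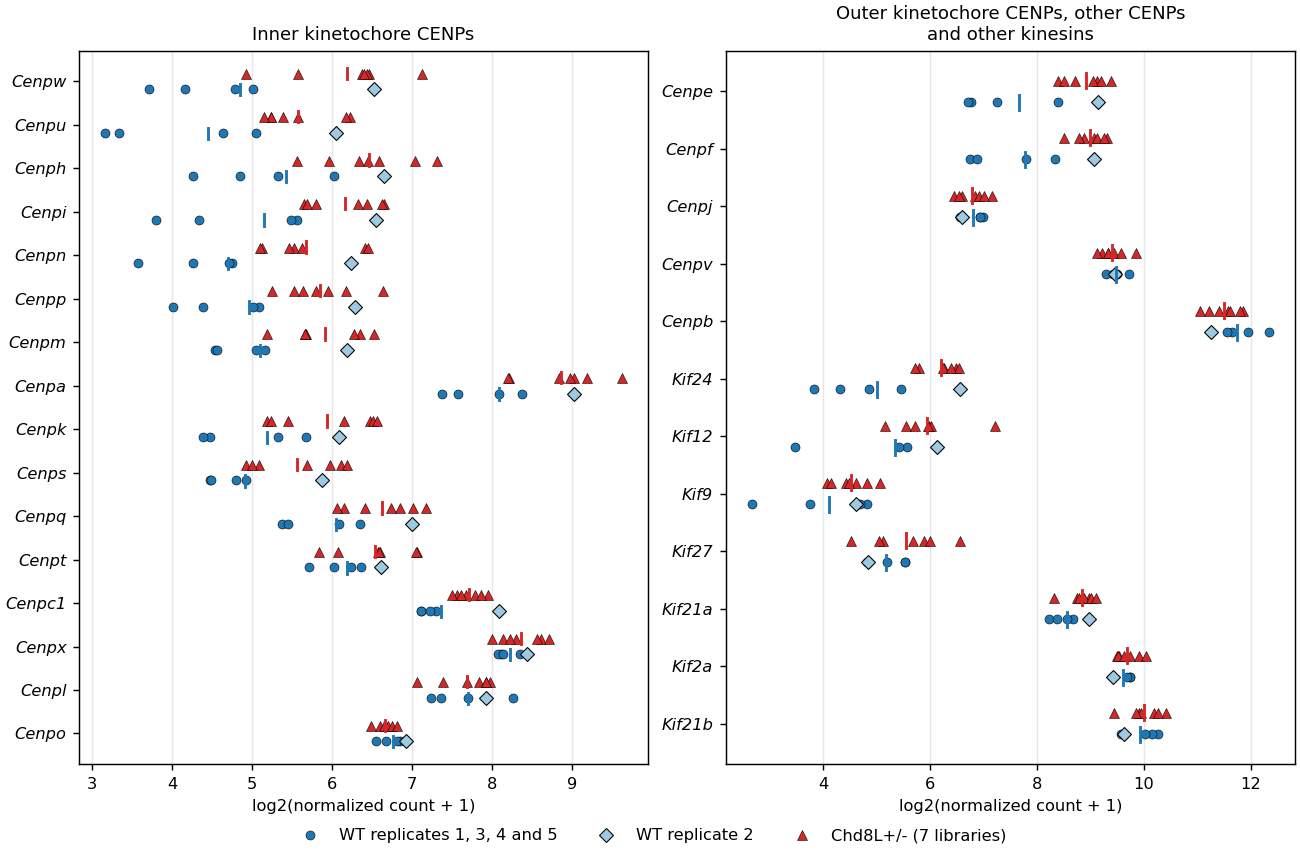
Log2(normalized count + 1) of the inner kinetochore CENPs (left) and of the outer kinetochore CENPs, other CENPs and other kinesins (right), 1 row a gene, with symbols as for the kinesins (circles, WT; diamond, WT replicate 2; triangles, Chd8L+/-; short lines, group means). Cenpe and Cenpf show the diamond among the triangles and Kif24 shows it just above them, whereas Cenpb, Cenpv and Cenpj show overlapping groups.

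Among the other kinesins, 7 of 7 tested were higher in Chd8L+/- with a median log2 fold change of 0.36. Kif24, a depolymerase that holds back the growth of cilia in cycling cells, was the 1 member at an unadjusted p of 0.05 or less. It was at 42.7, 93.4, 13.1, 27.8 and 18.8 in WT and 51.3 to 92.0 with a median of 75.1 in Chd8L+/- (log2 fold change 1.21 ± 0.38, adjusted p = 0.124), and it passed without WT replicate 2 (adjusted p = 0.00415). Kif1bp was at 254, 256, 242, 269.8 and 276 in WT and 169.7 to 315 with a median of 229 in Chd8L+/- (log2 fold change -0.18 ± 0.14, adjusted p = 0.449), with overlapping groups.

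Genes that work with the members were read from lists of partners, and differences between these lists were not tested. The spindle partners of mitotic kinesins were higher in 15 of 15 cases, and their median log2 fold change was 1.10. All of them reached an unadjusted p of 0.05, where 12.5% of all genes were higher at that level. Prc1, which bundles microtubules for Kif4 and Kif20a, was at 273, 464, 109.9, 105 and 188 in WT and 354 to 682 with a median of 474 in Chd8L+/- (log2 fold change 1.25 ± 0.33, adjusted p = 0.121). Kifc1, the minus-end kinesin of the spindle, had a log2 fold change of 1.10 ± 0.32 (adjusted p = 0.121). The kinetochore and CENP-A loading partners were higher in 21 of 21 cases found in the table, and the median was 0.87. Of these, 12 reached an unadjusted p of 0.05, beside the same 12.5% of all genes. Dsn1, of the MIS12 complex, was at 80.0, 112, 37.3, 37.7 and 32.6 in WT and 102 to 179 with a median of 115 in Chd8L+/- (log2 fold change 1.25 ± 0.30, adjusted p = 0.121), and Zwilch, of the checkpoint complex that recruits dynein, had a log2 fold change of 1.44 ± 0.38 (adjusted p = 0.121). None of these passed the adjusted threshold by limma, whereas by DESeq2 with all libraries 2 of the 15 and 2 of the 21 passed as higher, Prc1 (adjusted p = 0.0361), Numa1 (0.0411), Dsn1 (0.0177) and Zwilch (0.0327), of which Numa1 was named after its values were seen. By DESeq2 5.69% of all genes passed in either direction, 231 of them as higher. Without WT replicate 2, 15 of 15 and 13 of 21 passed as higher by limma, where 14% of all genes did. With 1 surrogate variable in the fit of all libraries, 14 of the 15 and 12 of the 21 were higher, with medians of 0.21 and 0.05. In each list 1 then reached an unadjusted p of 0.05, as did 308 of all genes as higher.

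The kinesin and dynein transport partners were mostly lower. Of 23 tested, 19 had a lower mean in Chd8L+/-, 8 of them reaching an unadjusted p of 0.05, where 11.8% of all genes were lower. The median log2 fold change was -0.22, and none passed the adjusted threshold by limma. By DESeq2, which fitted 25, there were 3 that passed as lower, Klc2 (adjusted p = 0.0309), Trak2 (0.0405) and Dctn3 (0.0494), the last named after its values were seen. Klc2, a light chain that joins cargo to Kif5 motors, was at 219, 152, 283, 329 and 216 in WT and 111 to 185 with a median of 148 in Chd8L+/- (log2 fold change -0.67 ± 0.20, adjusted p = 0.121). Trak2, an adaptor between kinesin and mitochondria, was at 1248, 833, 1754, 1706 and 1142 in WT and 629.7 to 1107 with a median of 777 in Chd8L+/- (log2 fold change -0.62 ± 0.19, adjusted p = 0.122). By DESeq2 5.69% of all genes passed in either direction, 580 of them as lower. Without WT replicate 2, 9 of the 23 passed as lower by limma, where 13.6% of all genes did. With 1 surrogate variable in the fit 13 were lower and 10 higher, with a median of -0.02 and 1 at an unadjusted p of 0.05 or less in each direction. With quantile normalization 18 were lower, 3 of them at that level, and the median was -0.10.

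Markers of crypt and villus cells were measured in the same libraries. The 8 crypt stem cell markers summed to 11982, 17935, 5798, 6350.3 and 9879 normalized counts in WT replicates 1 to 5 and to 11302 to 21153 in Chd8L+/-. The 11 enterocyte markers summed to 831370, 420680, 908250, 826840 and 840520 in WT and to 359300 to 765620 in Chd8L+/-. WT replicate 2 thus had the highest crypt sum and the lowest enterocyte sum of the WT group, and WT replicates 3 and 4 had the lowest crypt sums. By crypt sum, the order of the Chd8L+/- libraries was only partly that of the mitotic kinesins. Chd8L+/- replicate 3 had the highest mitotic mean of all 12 libraries, at 8.43 on the log2 scale, and a crypt sum of 11956. Replicate 1 had a mitotic mean of 7.66 and a crypt sum of 16011. Replicate 6 had a mitotic mean of 8.37 and the highest crypt sum, 21153. In replicates 3, 6, 4 and 5 the mitotic means were 8.43, 8.37, 8.16 and 7.94 and the enterocyte sums 520550, 359300, 481080 and 501150. In replicates 1, 7 and 2 the mitotic means were 7.66, 7.63 and 7.55 and the enterocyte sums 765620, 738450 and 751140. None of the 8 crypt and 11 enterocyte markers was at 0 in a library. Their means were higher in Chd8L+/- in 8 of 8 crypt markers (1 at an unadjusted p of 0.05 or less, where 12.5% of all genes were higher) and lower in 10 of 11 enterocyte markers (2 at that level, where 11.8% of all genes were lower). With all 12 libraries the shares at an unadjusted p of 0.05 or less are near those of all genes. The directions are not, since 51.4% of all genes were higher. The median log2 fold changes were 0.48 for the crypt and -0.42 for the enterocyte markers, beside 0.01 over all genes. Without WT replicate 2, 6 of 8 crypt markers were higher at an unadjusted p of 0.05 or less, beside 2604 of 12807 genes. Of the enterocyte markers 5 of 11 were then lower at that level, beside 2553 genes. The groups did not overlap in 0 crypt and 4 enterocyte markers, the latter beside 989 genes so separated and lower. At the adjusted threshold 2 of 8 and 2 of 11 passed, where 14% of all genes passed as higher and 13.6% as lower. With all 12 libraries, lymphocyte markers were lower in 10 of 13 cases (median log2 fold change -0.18) and myeloid markers higher in 8 of 9 (median 0.64), where 51.4% of all genes were higher. At an unadjusted p of 0.05 or less there were 0 lymphocyte markers, and 3 myeloid markers higher and 1 lower. Without WT replicate 2 the myeloid median was 0.92, and 4 passed the adjusted threshold as higher and 1 as lower. WT replicate 2 was the highest WT library in 7 of the 9, beside 33.9% of all genes. The part of these markers, and of the cell types they mark, in the differences of the kinesins and CENPs was not tested.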

How the data were processed

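Poly(A) RNA of 5 WT and 7 Chd8L+/- libraries was sequenced by the authors as single-end reads, mapped to mm10 with Tophat2 and analysed with DESeq2 (build and tool also per the submitters' processing notes). The counting program, annotation and use of strand are not given in the sources used here. As deposited, each value is a signal: the counts on a gene divided by a size factor. The values are whole multiples of the value of 1 read (100% recovered within a tolerance of 0.01 reads), which gave 15691662 to 20761315 reads a library. Counting error is largest for genes with few reads.

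Genes with a mean of at least 10 were tested with limma (version 3.58.1, R 4.3.3; lmFit, eBayes with trend) on log2(normalized count + 1), all 12 libraries, no block, Benjamini-Hochberg over 12808 genes, called at an adjusted p of 0.05. The 1 added before the logarithm makes fold changes of low genes smaller on this scale. The values here were still not the smallest: the mitotic median was 1.19 by limma and 0.99 by both DESeq2 and edgeR with all libraries. Alternatives were edgeR (4.0.16) and DESeq2 (1.42.0) on recovered reads, other pseudocounts (0.5 and 5), filters and normalizations, a surrogate variable (sva), blocks and leaving out libraries. The scripts were tested on simulated data. Rows named as dates (21) were not used as genes. Members and lists were chosen with earlier results of these data known, so counts over a list are descriptions. The genes named are well-known members, the member of each list with the smallest p, the member furthest against its list median, the 2 partners with the smallest p in each partner list, and Chd8; others with values are said to be chosen after these were seen, apart from the epithelial markers Epcam and Cdh1. Coordinates of genes are from GENCODE M21 (GRCm38), promoters from RefSeq. All 55 members were matched by name.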

Additional observations from a re-analysis of the deposited data

Results flagged for a closer look

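Cenpc1 in WT replicate 2 stood apart from the other 4 WT libraries. It was at 8.08 on the log2(normalized count + 1) scale, or 269.9 normalized counts, while the next WT library was at 7.30 and the lowest at 7.11. This was 1 such value among 74 groups examined for named genes and list means, where chance, at about 1 in 20, would give 3.7, so the number is below that of chance.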

How the results depend on the processing

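The number of members past the adjusted threshold rested on WT replicate 2. With each library left out in turn, it ran from 0 to 26 members and 0 to 3534 of all genes, 0 to 11 mitotic kinesins, 0 to 1 transport kinesin and 0 to 11 inner kinetochore CENPs; with WT replicate 2 kept it was 0 members in every case and at most 8 genes. Without WT replicate 2 and with edgeR, DESeq2 or removal of length and GC content trends, 26, 27 and 28 members and 3365, 4112 and 3695 genes passed, with 11 mitotic kinesins and 1 transport kinesin each, and 11, 12 and 13 inner CENPs. With all libraries, DESeq2 passed 811 genes and 2 members (1 mitotic, 1 transport), edgeR 5 genes with either scaling, the length and GC correction 0 genes, and the letter block 451 genes, 7 members and 5 mitotic kinesins. The list medians ranged over the left-out libraries from 0.99 to 1.55 (mitotic), -0.12 to -0.03 (transport) and 0.59 to 0.99 (inner CENPs), and their mitotic-transport difference from 1.03 to 1.66.

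With 1 surrogate variable the medians were 0.29, 0.18 and 0.031 and the difference 0.11, so the transport median turned sign. The variable itself averaged -0.22 ± 0.34 in the 5 WT libraries and 0.15 ± 0.15 (mean ± SD) in the 7 Chd8L+/- ones. Among the members named by rule, signs also turned there for Kif2c (-0.19), Kif22 (-0.038), Kif5b (0.091), Kif1c (0.20), Cenpc1 (-0.063), Cenpb (0.12) and Cenpj (0.20). Among the members named after their values were seen, they turned for Kif1a (0.38), Cenpq (-0.10), Cenps (-0.043), Cenpt (-0.033) and Cenpx (-0.081). Quantile normalization turned the transport median (0.12, with 6 higher and 5 lower, beside -0.07 with 4 and 7), Kif5b (0.12) and Kif1c (0.20), and edgeR with TMM turned Cenpj (0.0067). Kif1b turned with the letter block (-0.012), with DESeq2 without WT replicate 2 (-0.0097) and with the length and GC correction (-0.15, and -0.23 without WT replicate 2). Left-out libraries gave -0.11 to 0.021 for Kif1c, -0.062 to 0.11 for Kif1b and -0.078 to 0.042 for Cenpj. The cause was not tested. Of 648 values of the 24 named members under alternatives, 553 kept direction and side of the threshold, 67 passed it newly and 28 turned sign.

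WT and Chd8L+/- libraries share replicate numbers 1 to 5. Deviations of same-numbered libraries correlated at 0.19, -0.34, -0.13, -0.17 and -0.23, and 1 of the 5 WT libraries correlated best with its own number. These values show no pairing by number, but 5 correlations are too few to exclude one. With the replicate block 0 genes and 0 members passed, the mitotic median was 1.15 and Kif1c turned sign (0.046).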
